A study of Mus musculus with 4 samples.

Results

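The 10 genes described here encode the Fanconi anaemia core complex and its substrate: Fanca, Fancb, Fancc, Fance, Fancf, Fancg, Fancl and Fancm of the core, and Fancd2 and Fanci, whose products form the ID2 complex. They were taken by symbol from the 24340 genes of the deposited table, and all 10 were found. RNA was measured in bone marrow cells of C57BL/6 mice sorted as lineage-negative and Kit-positive. All cells carried JAK2V617F, the activated kinase of myeloproliferative neoplasms. There were 4 libraries, 1 per group: Tet2-/- cells given ruxolitinib, an inhibitor of JAK1 and JAK2 (KO ruxolitinib), Tet2-/- control cells (KO control), Tet2+/+ cells given ruxolitinib (WT ruxolitinib) and Tet2+/+ control cells (WT control). Tet2 oxidises methylated cytosine, and the series' title places its loss in a study of DNA repair and of PARP inhibitor sensitivity. The series' design text describes conditional inactivation of Tet2 in the blood system and treatment of the cells after they were taken from the marrow. It names a cross to a Flt3ITD line, whereas the labels of these 4 libraries name JAK2V617F. The Cre driver, the dose and time of ruxolitinib, the age of the mice and any pooling of animals are not given in the sources. With 1 library per group no difference below has a replicate check, and no test was made; the q-values given further on are the authors' own.

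Fanconi anaemia proteins act on interstrand crosslinks, lesions that join both strands of the helix and stop the replication fork. Fancm and its partners recognise the stalled fork and anchor the core complex; within the core, Fancl is the ubiquitin ligase, working with the conjugating enzyme Ube2t. It places a single ubiquitin on Fancd2 and on Fanci, which then clamp on DNA and open the way to nucleases, translesion polymerases and homologous recombination. Usp1, with its cofactor Wdr48, takes the ubiquitin off. In blood, loss of the pathway is known for bone marrow failure and a high risk of leukaemia, and haematopoietic stem cells are sensitive to endogenous aldehydes without it.

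The promoters of the genes with the widest genotype ratios, Fanca and Fancb, are shown with those of Fancf and Fancm, the members with a match to an E2F-like motif, and of Fance, whose level differed least between genotypes without drug. Each line gives the 250 bases before the transcription start, 5′ to 3′ on the gene's strand, from RefSeq on GRCm38.p6. Capitals mark matches on either strand to CCAAT, the box bound by NF-Y, and to the E2F-like letters TTGGCGC or TTCGCGC.
Fanca, chr8:123318577-123318826, minus strand: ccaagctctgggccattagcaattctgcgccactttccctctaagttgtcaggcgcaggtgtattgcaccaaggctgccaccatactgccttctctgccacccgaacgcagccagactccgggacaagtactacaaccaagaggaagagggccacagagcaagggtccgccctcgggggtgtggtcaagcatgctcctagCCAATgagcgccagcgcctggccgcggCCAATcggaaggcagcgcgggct
Fancb, chrX:164980342-164980591, plus strand: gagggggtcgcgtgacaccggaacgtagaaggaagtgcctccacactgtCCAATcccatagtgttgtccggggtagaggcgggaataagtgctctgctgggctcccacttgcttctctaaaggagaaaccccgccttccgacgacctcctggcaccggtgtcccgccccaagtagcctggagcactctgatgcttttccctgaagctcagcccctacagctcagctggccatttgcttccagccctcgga
Fance, chr17:28313280-28313529, plus strand: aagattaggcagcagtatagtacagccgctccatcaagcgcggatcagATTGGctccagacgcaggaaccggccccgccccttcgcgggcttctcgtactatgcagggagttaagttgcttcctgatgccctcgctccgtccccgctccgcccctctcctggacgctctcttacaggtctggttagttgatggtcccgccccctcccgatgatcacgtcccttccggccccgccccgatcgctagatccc
Fancf, chr7:51862268-51862517, minus strand: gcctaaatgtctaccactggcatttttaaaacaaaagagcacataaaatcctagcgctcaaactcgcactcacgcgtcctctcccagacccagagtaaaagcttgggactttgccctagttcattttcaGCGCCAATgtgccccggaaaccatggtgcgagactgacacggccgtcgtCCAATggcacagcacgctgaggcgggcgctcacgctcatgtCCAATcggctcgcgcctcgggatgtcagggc
Fancm, chr12:65075353-65075602, plus strand: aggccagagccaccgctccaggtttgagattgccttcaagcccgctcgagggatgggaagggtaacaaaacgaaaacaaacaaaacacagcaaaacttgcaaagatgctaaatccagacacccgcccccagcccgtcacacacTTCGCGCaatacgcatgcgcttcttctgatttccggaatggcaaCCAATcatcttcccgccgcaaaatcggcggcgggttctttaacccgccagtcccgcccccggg

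The reference table held a promoter for 9 of the 10 genes, and the search covered 300 bases, 250 before and 50 after the start. Each start was that of the promoter entry, which can differ from the end of the gene span given below. The 250 bases before the start lay wholly inside those spans for Fancc, Fancl and Fanci, and in part for Fancg and Fance. Other starts of these genes were not searched. An E2F-like match was found in 2 of 9, at position -121 in Fancf and -107 in Fancm counted back from the start, against 3.89% of 32851 promoters of that length. A CCAAT match was found in 6 of 9, against 37.4% of all promoters. Fanca had a pair, with their first bases at -50 and -23, and Fancf had 3, the farthest of which shares letters with its E2F-like match. The letters TTTGAA, the core of the CHR element of mitotic genes, were in 0 of 9, against 17.9% of all. Only the forms TTGGCGC and TTCGCGC were searched as E2F-like letters, so genes without a match may hold other forms. A link between the matches and the genotype ratios was not tested. A match describes the letters and not binding.

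**Figure D1:**
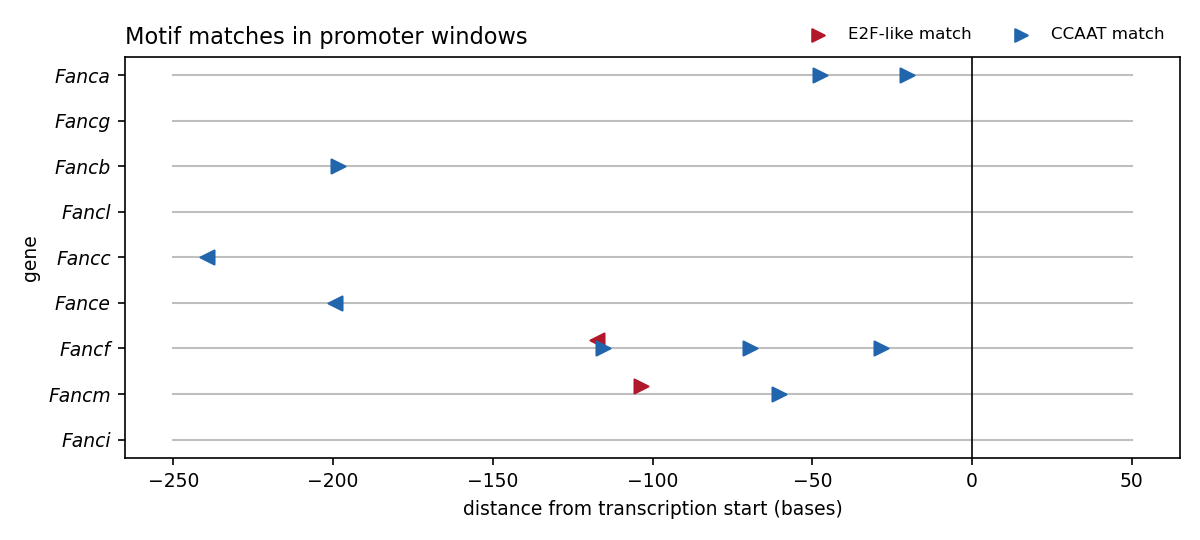
Positions of E2F-like and CCAAT matches in the promoter windows of the 9 genes with an entry, in bases from the transcription start (0). Arrowheads point along the strand of the match. Fanca has a CCAAT pair close to the start, and Fancf and Fancm hold the E2F-like matches. The windows of Fancg, Fancl and Fanci, which lie wholly or partly inside the gene spans, have no match to the letters searched.

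All 10 genes were detected in every library and passed the filter used throughout, which keeps genes averaging 1 FPKM or more, as did 10471 genes in all. FPKM scales fragments by transcript length and by the depth of the library, so levels can be set side by side between genes. By the steps between the lowest values, 1 FPKM over 1 kilobase of transcript stood for 52.1 and 54.1 fragments in the KO ruxolitinib and KO control libraries, against 47.6 and 43.9 in the WT ruxolitinib and WT control libraries, any scaling by Cuffdiff included. Ratios are log2 of FPKM + 1, a scale on which changes of low genes look smaller than they are. The error after ± is an estimate of counting error only. Genes were counted at 1.5-fold or more of FPKM + 1. Folds printed for single genes are ratios of FPKM itself, so they can reach a size that the count does not. Kit, which the gate uses, was at 421 to 647 FPKM, and mast cell transcripts were abundant. Of 12 listed mast cell genes 11 passed the filter, with Cpa3 listed at 0, and they summed to 26049 and 21903 FPKM in the KO ruxolitinib and KO control libraries, against 35214 and 31823 FPKM in the WT ruxolitinib and WT control libraries. Cma1 and Fcer1a made up much of these sums. Of the 11 genes, 1 had a genotype ratio above 0 without drug and 5 with drug, the highest being Tpsab1, 4.27-fold higher with drug. The part of these differences in the Fanconi results was not tested. Of 8 listed stem and progenitor genes 5 passed the filter, among them Ly6a at 583 to 1033 FPKM and Cd34 at 307 to 465 FPKM. Flt3 was listed at 0 in all libraries, and Procr and Slamf1 did not reach the filter. None of the B cell or T and NK cell markers reached the filter. Of 11 granulocyte and monocyte genes 2 did, of 8 erythroid genes 3, of 7 megakaryocyte genes 3 and of 7 stromal genes 1. Of these, 2 erythroid genes had a genotype ratio above 0 without drug and the others did not. Ctsg had ratios of -1.70 without drug and -1.95 with drug, and Itga2b, at 442 to 743 FPKM, had -0.59 and -0.49. Mpo and Elane did not reach the filter. The part of these genes in the Fanconi results was not tested. Xist RNA, made from the silent X of female cells, stood at 62.2 and 53.2 FPKM in the KO ruxolitinib and KO control libraries, against 0.0309 and 0.0241 in the WT ruxolitinib and WT control libraries. Y-linked Ddx3y was at 0.00886 and 0.0288 FPKM in the KO ruxolitinib and KO control libraries, against 18.7 and 21.3 in the WT ruxolitinib and WT control libraries, so genotype and sex cannot be told apart. Tet2 was at 4.39 and 3.62 FPKM in the KO ruxolitinib and KO control libraries, against 5.05 and 4.69 in the WT ruxolitinib and WT control libraries; a value over the whole gene does not check a deleted exon. Jak2 was at 24.9 and 24.5 FPKM in the KO ruxolitinib and KO control libraries, against 35.1 and 36.8 in the WT ruxolitinib and WT control libraries, which does not tell the mutant from the normal allele.

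The core genes spanned a wide range of levels. Fancl was the highest member in all 4 libraries and Fancm, the largest transcript, the lowest in all 4, and Fancl exceeded Fancm 6.5-fold to 8.91-fold. Averaged over libraries, Fancl was at 23.0 FPKM, above 62.9% of measured genes, and Fancm at 2.97 FPKM, above 11.8%. Between them, Fancg, Fance, Fancb and Fanci averaged 10.2 to 14.4 FPKM, and Fanca, Fancd2, Fancc and Fancf 4.17 to 6.23 FPKM. The order moved with genotype: Fanca had rank 6 of 10 in both KO libraries, against rank 8 in the WT ruxolitinib and rank 7 in the WT control library. Over the 4 libraries, the range of Fancl lay wholly above that of Fancg, the next gene, and that of Fancm wholly below that of Fancf. Each other neighbouring pair in the order of means had overlapping ranges.

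**Figure D2:**
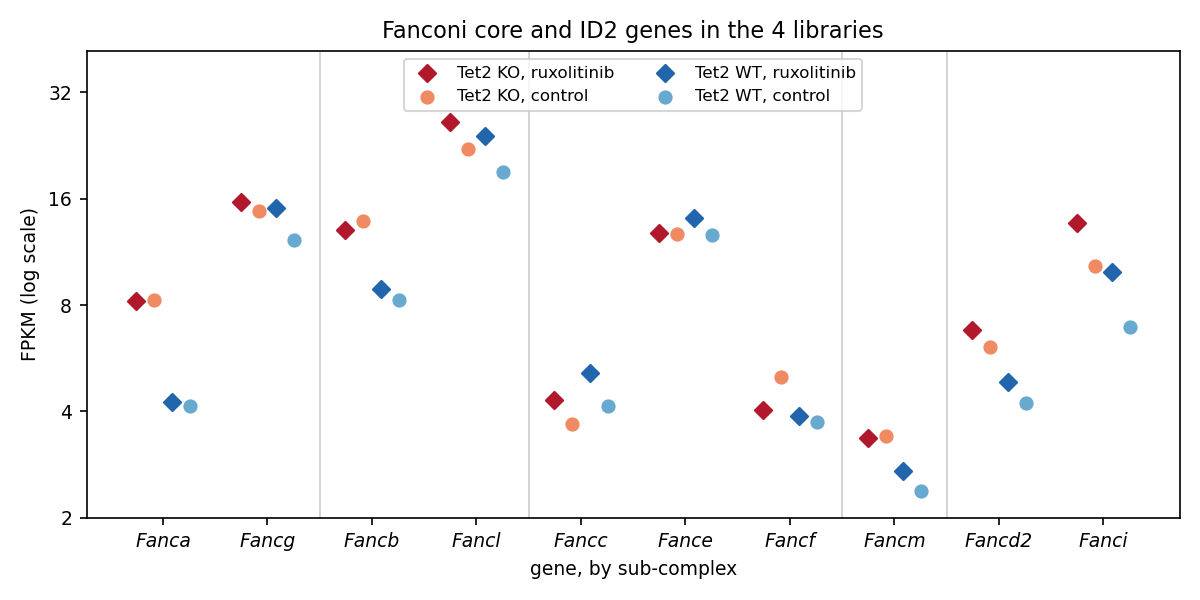
FPKM (log scale) of each gene in the KO ruxolitinib, KO control, WT ruxolitinib and WT control library, 1 point per library, with grey lines between sub-complexes. Fanca sits above 8 FPKM in both KO libraries and below 4.3 FPKM in both WT libraries, while the 4 points of Fance lie between 12.6 and 14.1 FPKM.

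Without drug, the KO library had more Fanca and Fancb RNA than the WT library, moderately more Fanci, Fancd2, Fancm and Fancf, slightly more Fancg and Fancl, about the same Fance and slightly less Fancc. Of the 10 genes, 9 had a log2 ratio above 0, against 50.4% of measured genes, and the median was 0.36, against 0.00 for all measured genes. At 1.5-fold or more 2 were higher, where 3.88% of measured genes were, and 0 were lower, where 5.06% were. With ruxolitinib in both genotypes, 8 of 10 were above 0, against 50.2% of measured genes, the median was 0.18, and Fanca alone was at least 1.5-fold higher, where 2.97% of measured genes were and 3.34% were as far lower. Rescaling values to TPM put the median of all measured genes at 0.15 without drug and 0.13 with drug. At 1.5-fold, 846 genes were then higher and 423 lower without drug, against 406 and 530 as deposited, and 616 were higher and 294 lower with drug, against 311 and 350 as deposited. On that scale 4 members were at least 1.5-fold higher without drug (Fanca, Fancb, Fancd2 and Fanci) and 2 with drug (Fanca and Fancb), whereas with a pseudocount of 5 in place of 1 there were 0 in both pairs.

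**Figure D3:**
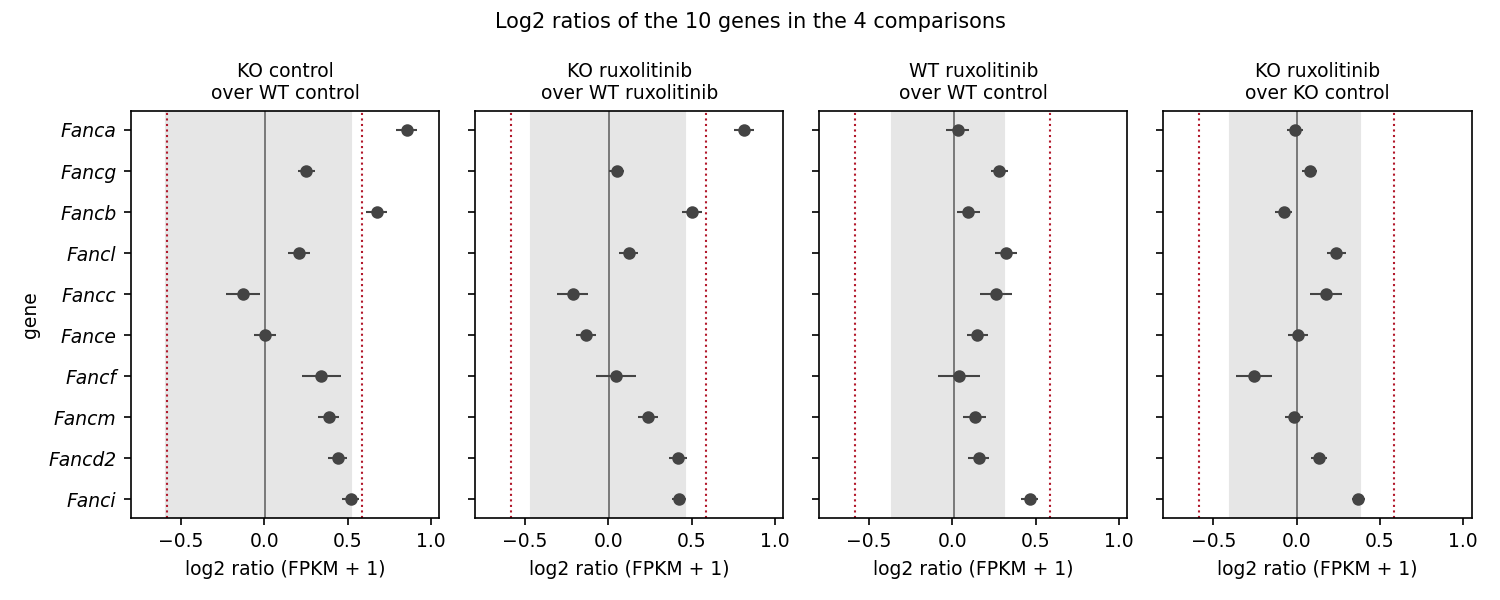
Log2 ratios of FPKM + 1 in the 4 comparisons, 1 point per gene, with bars for the estimated counting error. The grey band spans the 5th to 95th percentile of all measured genes, the grey line is their median and red dotted lines mark 1.5-fold; Fanca and Fancb lie right of the band in both genotype panels, and Fanci and Fancl do so with drug in wild type.

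Fanca and Fancg pair in an arm of the core complex with Faap20, which binds ubiquitin. Fanca (chromosome 8, 123268300 to 123318576, minus strand, mm10) was at 8.23 and 8.30 FPKM in the KO ruxolitinib and KO control libraries, against 4.26 and 4.15 FPKM in the WT ruxolitinib and WT control libraries. Both KO libraries were close to each other and well above both WT libraries. In FPKM itself the difference was 2.0-fold without drug and 1.93-fold with drug. The log2 ratio of FPKM + 1 was 0.85 ± 0.06 without drug, which 1.59% of measured genes reached or passed. With drug it was 0.81 ± 0.06. Whether reads were counted by strand is not stated, so reads of genes that overlap on the other strand cannot be told apart. Overlapping exons were counted over all annotated transcripts, so versions of 1 exon can count separately. For Fanca the overlapping gene is Zfp276, with 2 overlapping exons and log2 ratios of -0.08 without drug and -0.04 with drug. Fancg (chromosome 4, 43002343 to 43010506, minus strand) was at 15.6 and 14.8 FPKM in the KO ruxolitinib and KO control libraries, against 15.1 and 12.2 FPKM in the WT ruxolitinib and WT control libraries. The WT control library was the low one, and the genotype ratios of Fancg were 0.25 ± 0.05 without drug and 0.05 ± 0.05 with drug. Faap20 was at 39.3 and 37.7 FPKM in the KO ruxolitinib and KO control libraries, against 41.4 and 41.0 FPKM in the WT ruxolitinib and WT control libraries. The 3 genes of the arm therefore did not differ alike. Fanca RNA was at 0.526 and 0.562 of the Fancg level in the KO ruxolitinib and KO control libraries, against 0.282 and 0.339 in the WT ruxolitinib and WT control libraries.

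Fancb and the ligase gene Fancl share the catalytic arm with Faap100. Fancb (chromosome X, 164980592 to 164997272, plus strand) was at 13.1 and 13.8 FPKM in the KO ruxolitinib and KO control libraries, against 8.91 and 8.29 FPKM in the WT ruxolitinib and WT control libraries. Both KO values were above both WT values. The difference was 1.67-fold without drug, a log2 ratio of 0.67 ± 0.06, and 1.46-fold with drug, a log2 ratio of 0.50 ± 0.06. Fancb is the X-linked member, and Xist and Y-linked RNA differed between genotypes as given above. Over 293 X-linked protein-coding measured genes, which leave out Xist, the median log2 ratio was 0.01 without drug and 0.02 with drug. Of these 293 genes, 4 without drug and 17 with drug had ratios as high as that of Fancb, itself included. Fancl (chromosome 11, 26386135 to 26471876, plus strand) was at 26.4 and 22.2 FPKM in the KO ruxolitinib and KO control libraries, against 24.2 and 19.1 FPKM in the WT ruxolitinib and WT control libraries. The values of Fancl separated by drug and not by genotype, since the ruxolitinib library of each genotype was above both control libraries. Its genotype ratios were 0.21 ± 0.07 without drug and 0.12 ± 0.06 with drug. Vrk2, a kinase gene with 2 exons that overlap Fancl on the other strand, had genotype ratios of 0.07 without drug and -0.05 with drug. Faap100 had ratios of 0.09 without drug and -0.03 with drug.

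Fancc, Fance and Fancf form the arm that brings Fancd2 to the ligase. Fancc (chromosome 13, 63285043 to 63497278, minus strand) was at 4.31 and 3.70 FPKM in the KO ruxolitinib and KO control libraries, against 5.16 and 4.13 FPKM in the WT ruxolitinib and WT control libraries. It was the member whose KO value lay below its WT value in both pairs, at log2 ratios of -0.13 ± 0.10 without drug and -0.21 ± 0.09 with drug, or -0.01 and -0.11 as TPM. The gene 2010111I01Rik, which shares 1 exon overlap with Fancc on the other strand and has much higher levels, had ratios of -0.33 without drug and -0.40 with drug. Fance (chromosome 17, 28313519 to 28326572, plus strand), whose product contacts Fancd2, was at 12.8 and 12.7 FPKM in the KO ruxolitinib and KO control libraries, against 14.1 and 12.6 FPKM in the WT ruxolitinib and WT control libraries. The WT ruxolitinib library was the high one. The genotype ratios of Fance were 0.01 ± 0.06 without drug and -0.14 ± 0.06 with drug. Fancf (chromosome 7, 51860577 to 51862267, minus strand), an adaptor of the complex, was at 4.04 and 5.02 FPKM in the KO ruxolitinib and KO control libraries, against 3.88 and 3.74 FPKM in the WT ruxolitinib and WT control libraries. The KO control library was the high one, and both KO values were above both WT values. The genotype ratios of Fancf were 0.34 ± 0.12 without drug and 0.04 ± 0.12 with drug, beside 0.07 and -0.03 for Gas2, which overlaps it by 1 exon on the other strand. It had the fewest fragments of the 10 genes, an estimated 313 and 404 in the KO ruxolitinib and KO control libraries, against 276 and 245 in the WT ruxolitinib and WT control libraries.

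Fancm is the translocase that carries the core to DNA, with Faap24 and the histone-fold pair Cenps and Cenpx, which the table lists under the older symbols Apitd1 and Stra13. Fancm (chromosome 12, 65075603 to 65132058, plus strand) was at 3.37 and 3.42 FPKM in the KO ruxolitinib and KO control libraries, against 2.71 and 2.38 FPKM in the WT ruxolitinib and WT control libraries. Both KO values were above both WT values, by 0.39 ± 0.06 on the log2 scale in the drug-free pair and by 0.24 ± 0.06 in the ruxolitinib pair. Faap24 was at 12.8 and 14.9 FPKM in the KO ruxolitinib and KO control libraries, against 10.8 and 11.0 FPKM in the WT ruxolitinib and WT control libraries. Apitd1 was at 15.6 and 15.7 FPKM in the KO ruxolitinib and KO control libraries, against 11.7 and 9.66 FPKM in the WT ruxolitinib and WT control libraries. All 4 genes of this group had genotype ratios above 0 in both pairs, with medians of 0.40 without drug and 0.24 with drug.

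The ID2 genes had like genotype ratios and unlike drug ratios. Fancd2 (chromosome 6, 113531682 to 113597017, plus strand) was at 6.80 and 6.11 FPKM in the KO ruxolitinib and KO control libraries, against 4.84 and 4.24 FPKM in the WT ruxolitinib and WT control libraries. Fanci (chromosome 7, 79391929 to 79450264, plus strand) was at 13.7 and 10.4 FPKM in the KO ruxolitinib and KO control libraries, against 9.94 and 6.93 FPKM in the WT ruxolitinib and WT control libraries. For both genes each KO library was above each WT library. The genotype ratio without drug was 0.44 ± 0.06 for Fancd2 and 0.52 ± 0.05 for Fanci, and with drug it was 0.42 ± 0.05 for Fancd2 and 0.42 ± 0.04 for Fanci. Fanci RNA exceeded Fancd2 RNA 2.01-fold and 1.70-fold in the KO ruxolitinib and KO control libraries, against 2.05-fold and 1.63-fold in the WT ruxolitinib and WT control libraries. The excess was larger in each ruxolitinib library than in each control library. Fanci overlaps 6 exons of Polg, counted over its annotated transcripts, on the other strand. Polg is the gene of the mitochondrial DNA polymerase. Polg was at 15.0 and 12.8 FPKM in the KO ruxolitinib and KO control libraries, against 14 and 10.9 FPKM in the WT ruxolitinib and WT control libraries. Within each genotype Polg was higher in the ruxolitinib library, as Fanci was. Across the libraries Polg separated by drug and Fanci by genotype. How many reads the pair shares was not tested.

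Both KO libraries were above both WT libraries for 6 of the 10 genes (Fanca, Fancb, Fancf, Fancm, Fancd2 and Fanci), against 28.2% of measured genes. Fanca had the highest genotype ratio of the 10 in both pairs, and Fancc the lowest in both. The authors' deposited table gave 4 of the 10 a q-value under 0.05 and a higher value without drug, against 9.37% of the genes it tested. In the authors' deposited table these q-values were 0.000746 for Fanca, 0.000746 for Fancb, 0.00457 for Fancd2 and 0.00502 for Fancm, while Fanci had 0.0537. With drug the authors' deposited table gave 3, against 7.39% of its tested genes: 0.000746 for Fanca, 0.00253 for Fancb and 0.0055 for Fancd2. These q-values of the authors' deposited table compare single libraries and carry no spread between animals.

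**Figure D4:**
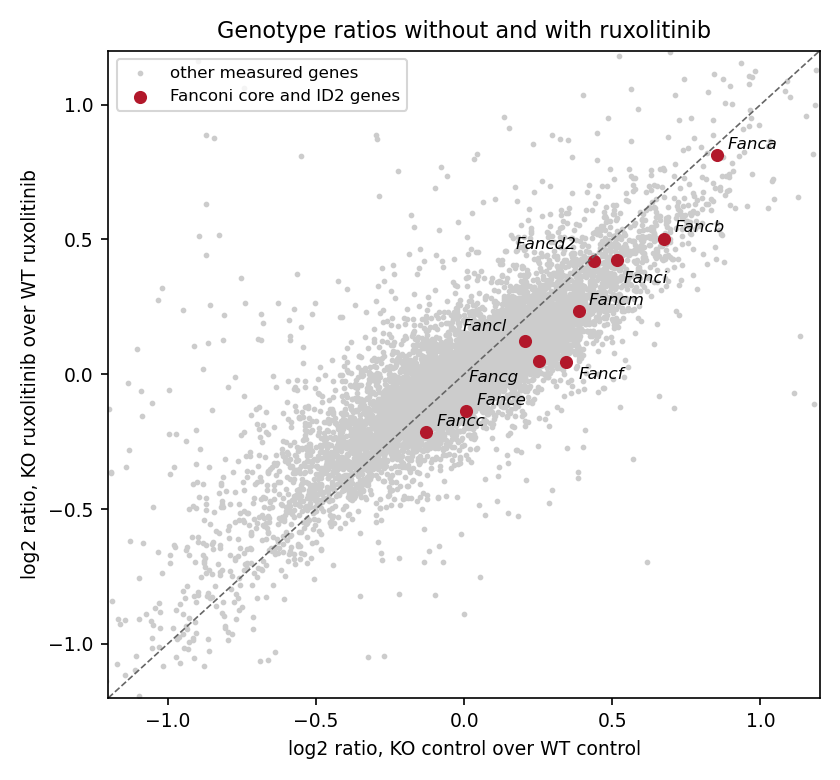
Log2 ratios of KO over WT without drug (x axis) and with ruxolitinib (y axis), with the 10 genes in red, other measured genes in grey and a dashed line of equality; genes with a ratio beyond 1.2 in size lie outside the axes. Fanca lies at 0.85 and 0.81 and Fancc at -0.13 and -0.21, and all 10 red points lie below the line. Lying below the line is the same result as a ruxolitinib ratio that is lower in knockout than in wild type.

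In wild-type cells ruxolitinib went with small ratios above 0, the highest of them for Fanci. All 10 genes had a log2 ratio above 0, against 51.9% of measured genes, and their median was 0.15, against 0.01 for all measured genes. None reached 1.5-fold in either direction, where 3.69% of measured genes did. The authors' deposited table gave none a q-value under 0.05, against 6.52% of its tested genes. Fanci had a ratio of 0.46 ± 0.05, which 1.81% of measured genes reached or passed, beside 0.33 for Polg on the other strand. Fancl followed at 0.32 ± 0.07, Fancg at 0.28 ± 0.05 and Fancc at 0.26 ± 0.10. Fanca at 0.03 ± 0.07 and Fancf at 0.04 ± 0.13 were within their counting error. The WT control library enters this comparison as well as the drug-free genotype one, and it held the lowest of the 4 values for 9 of the 10 genes, against 22.7% of measured genes.

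In knockout cells the ruxolitinib ratios were smaller and of both signs. Of the 10 genes 6 were above 0, against 50.8% of measured genes, and their median was 0.04, against 0.00 for all measured genes. None reached 1.5-fold in either direction, where 3.87% of measured genes did. The authors' deposited table gave none a q-value under 0.05, against 9.58% of its tested genes. Fanci again had the highest ratio, 0.37 ± 0.04, beside 0.21 for Polg, and Fancl followed at 0.24 ± 0.06. Fancf had the lowest, -0.26 ± 0.11, and Fancb was at -0.08 ± 0.05. Fanca was at -0.01 ± 0.05 and Fancm at -0.02 ± 0.06, which became 0.01 and 0.00 after rescaling to TPM. The ruxolitinib ratio in knockout minus that in wild type was below 0 for all 10 genes, against 52.6% of measured genes. Each replication gene listed below also had a lower ruxolitinib ratio in knockout, with list medians of 0.03 in knockout and 0.18 in wild type. The listed mitosis genes went both ways. For the 10 genes, the median of the difference and its range follow. The median difference was -0.12 over the 10 genes, against -0.01 over all measured genes. This difference ran from -0.30 for Fancf to -0.02 for Fancd2. Fancf alone lay outside the 5th to 95th percentile of measured genes, -0.24 to 0.30. All 4 libraries enter this difference, and with 1 per group it was not tested.

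Of 8 genes that work beside the core, partners and modifiers, 6 had a genotype ratio above 0 without drug, against 50.4% of measured genes, and the median was 0.30. At 1.5-fold or more 2 were higher (Usp1 and Apitd1), where 3.88% of measured genes were, and 0 were lower, where 5.06% were. With drug 6 were above 0, against 50.2% of measured genes, 0 were 1.5-fold higher or lower, where 2.97% and 3.34% were, and the median was 0.23. The same shares of measured genes stand behind the counts of the lists that follow. The deubiquitinase gene Usp1 was at 34.2 and 34.1 FPKM in the KO ruxolitinib and KO control libraries, against 23.7 and 21 FPKM in the WT ruxolitinib and WT control libraries. Its cofactor gene Wdr48 was at 20.9 and 18.6 FPKM in the KO ruxolitinib and KO control libraries, against 19.9 and 18.8 FPKM in the WT ruxolitinib and WT control libraries. Thus Usp1 separated by genotype, with ratios of 0.67 without drug and 0.51 with drug, beside -0.02 and 0.07 for Wdr48. The conjugating enzyme gene Ube2t was at 18.4 and 17.1 FPKM in the KO ruxolitinib and KO control libraries, against 13.6 and 13.2 FPKM in the WT ruxolitinib and WT control libraries. It also separated by genotype, with ratios of 0.36 without drug and 0.41 with drug.

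Of 12 downstream genes, 9 had a genotype ratio above 0 without drug, 2 were higher by 1.5-fold or more and 0 lower by as much, with a median of 0.43. With drug 8 were above 0, 0 passed and the median was 0.32. In FPKM itself Brca1 and Rad51c were 1.51-fold and 1.55-fold higher in KO with drug. Brca1, which acts in homologous recombination, was among those that passed without drug. It was at 12.2 and 11.1 FPKM in the KO ruxolitinib and KO control libraries, against 8.11 and 6.80 FPKM in the WT ruxolitinib and WT control libraries. Brca1 separated by genotype, with ratios of 0.64 without drug and 0.54 with drug. The following were named after their values were seen. The helicase gene Brip1 and the recombination genes Palb2, Brca2, Rad51c and Xrcc2 had ratios of 0.47, 0.44, 0.43, 0.47 and 0.39 without drug. The incision genes of this list, Slx4, Ercc4 and Fan1, had ratios of -0.07, -0.06 and -0.01 without drug, all smaller than the 0.15 by which TPM moves the median gene. Other nuclease genes, given at the end, had ratios from -0.05 for Mus81 to 0.57 for Eme1, with Ercc1 at 0.30. Of the BLM complex, which dissolves joined DNA molecules, 4 of 4 genes were above 0 in both pairs, with medians of 0.19 without drug and 0.17 with drug. Its gene Rmi2 was the 1 of the 4 that passed 1.5-fold without drug, and with drug 0 did. Rmi2 was at 2.20 and 3.15 FPKM in the KO ruxolitinib and KO control libraries. In the WT ruxolitinib and WT control libraries Rmi2 was at 1.40 and 1.26 FPKM. In FPKM itself Rmi2 was 1.57-fold higher in KO with drug.

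Replication and mitosis genes differed by genotype in the same direction, the replication genes by more. All 28 replication genes had a genotype ratio above 0 without drug, 25 were at least 1.5-fold higher and the median was 0.75. With drug all 28 were above 0, 18 passed and the median was 0.61. Their summed level was 1584 and 1550.2 FPKM in the KO ruxolitinib and KO control libraries, against 1048 and 920.3 FPKM in the WT ruxolitinib and WT control libraries. All 21 mitosis genes were above 0 in both pairs, with medians of 0.44 without drug, where 4 passed 1.5-fold, and 0.40 with drug, where 0 did. Their summed level was 1036 and 1042 FPKM in the KO ruxolitinib and KO control libraries, against 784 and 777 FPKM in the WT ruxolitinib and WT control libraries. Mki67, which marks cycling cells, was at 57.0 and 51.5 FPKM in the KO ruxolitinib and KO control libraries, against 39.1 and 37.1 FPKM in the WT ruxolitinib and WT control libraries. The ratio without drug was 0.87 for the helicase gene Mcm5, 0.53 for the clamp gene Pcna, 0.64 for the topoisomerase gene Top2a and 0.32 for the cyclin gene Ccnb1. The part of these genes' difference in the Fanconi ratios was not tested, and in bulk samples fewer cells of a type and less RNA per cell cannot be told apart. With ruxolitinib in wild type the replication median was 0.18 and the mitosis median 0.03, and in knockout they were 0.03 and -0.02.

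**Figure D5:**
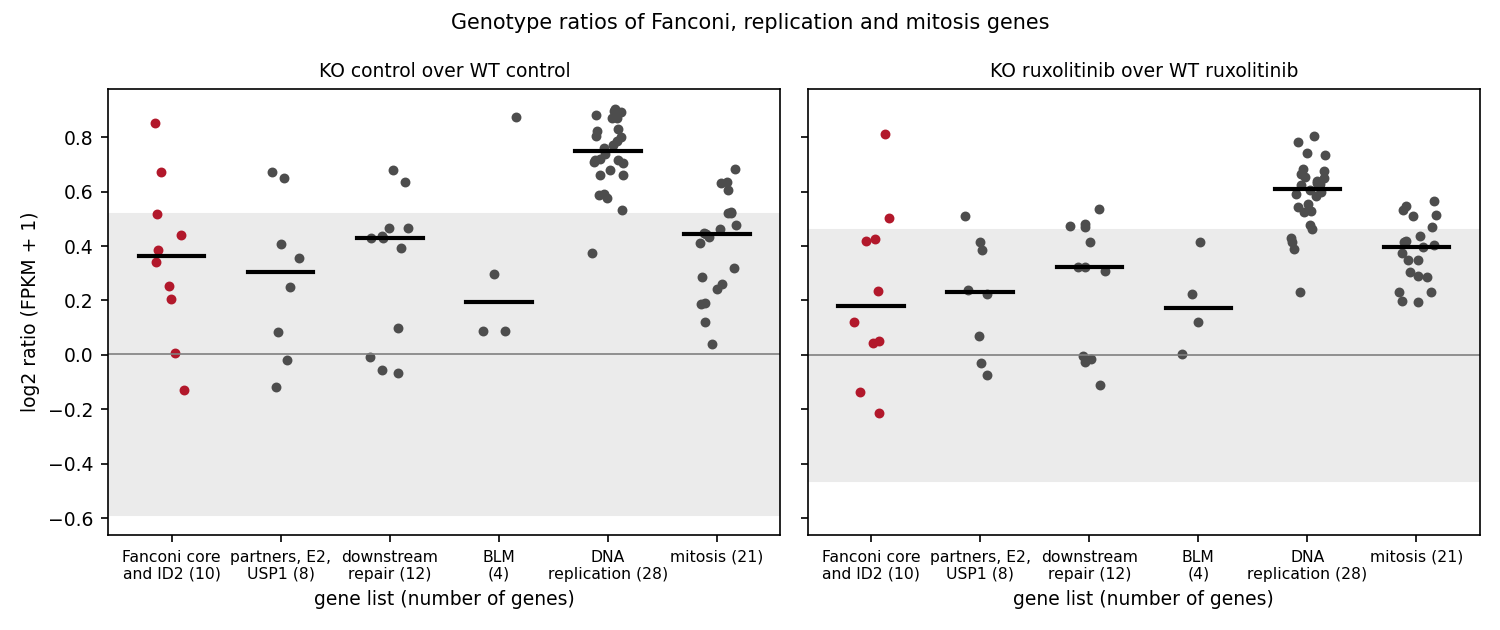
Log2 ratios of KO over WT for each gene of the lists, without drug and with ruxolitinib; points are genes, black bars are list medians, and the grey band spans the 5th to 95th percentile of all measured genes. Replication genes have medians of 0.75 and 0.61, above those of the Fanconi core and ID2 genes, 0.36 and 0.18.

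The genes most like Fanca and Fancd2 over the 4 libraries were sought among 9351 measured genes, by the Euclidean distance between log2 values centred on each gene's mean. Nearest to Fanca were the junction gene Pkp3 at a distance of 0.05, the thymidylate synthase gene Tyms at 0.06, the replication helicase gene Cdc45 at 0.07, the fatty acid elongase gene Elovl6 at 0.09 and the recombination gene Psmc3ip at 0.09. Tyms was at 33.5 and 35.4 FPKM in the KO ruxolitinib and KO control libraries, against 18.7 and 18.9 FPKM in the WT ruxolitinib and WT control libraries. As for Fanca, its KO libraries were close to each other and so were its WT libraries. Among the nearest to Fancd2 were the condensin gene Ncapd3 at 0.01, Cep128 at 0.02, the mitotic kinase gene Mastl at 0.03 and the spindle gene Nusap1 at 0.03. Of the other members Fancb was nearest to Fanca, at 0.25, and Fancm nearest to Fancd2, at 0.16. With 4 libraries these distances only describe the pattern.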

How the data were processed

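RNA from mouse marrow cells was depleted of ribosomal RNA before sequencing, per the labels' protocols. STAR and Cuffdiff were used with mm10, per the submitters' processing notes; their versions, the annotation and the strand setting are not given in the sources. The authors deposited FPKM for 24340 genes in 4 libraries, and a table of 6 library pairs with log2 fold changes without a pseudocount and q-values (adjusted p-values), of which 4 pairs were used.

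Libraries were grouped by the labels. Log2 ratios of FPKM + 1 were computed from the deposited values, for genes averaging 1 FPKM or more. With 1 library per group no test was made. The members, the gene lists and the rule for named genes were chosen with earlier results of these data known. The rule took all members, listed partner, downstream and BLM genes at 1.5-fold or more, Ube2t, Usp1, Wdr48 and Brca1, the 5 genes nearest to Fanca and to Fancd2, 5 proliferation genes, and sex and genotype genes. Some genes that the rule names are not reported here. Gene positions come from GENCODE and promoters from RefSeq, both on GRCm38, the build of mm10.

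Depth was estimated from FPKM steps of low genes with 1 transcript of at least 1500 bases, less 200; in each library 75.0% to 87.0% of low values set aside lay within 0.15 of a whole multiple. The counting error of a ratio uses these steps and the shortest coding transcript, and covers counting error only. The ratio step was tested on simulated data. Python 3.11.15, numpy 2.4.6, pandas 2.3.3 and matplotlib 3.10.9 were used. Alternatives were pseudocounts of 0.1 and 5, no filter, a filter of 5 FPKM, centring on the median ratio, rescaling to TPM, the authors' ratios and fold rules of 25% more and of 2-fold; leaving out X-linked Fancb was chosen after seeing the data.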

Additional observations from a re-analysis of the deposited data

Results flagged for a closer look

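For some genes the 2 ratios under the same contrast had opposite signs. With 1 library per group these differences were not tested. The log2 ratio of ruxolitinib over control was -0.00964 ± 0.05 in knockout and 0.0307 ± 0.07 in wild type for Fanca, both within their estimated counting error. For Fancb it was -0.0766 ± 0.05 in knockout and 0.0942 ± 0.07 in wild type. For Fancf it was -0.257 ± 0.11 in knockout and 0.0413 ± 0.13 in wild type. For Fancm it was -0.0153 ± 0.06 in knockout and 0.135 ± 0.07 in wild type. After rescaling to TPM the knockout ratios of Fanca and Fancm were 0.01 and 0.00, above 0 as in wild type, so the signs were then not opposite. The log2 ratio of knockout over wild type was -0.136 ± 0.06 with ruxolitinib and 0.00543 ± 0.06 without drug for Fance.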

How the results depend on the processing

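Without drug, the count of members at 1.5-fold or more, 2 as reported, was 0 with a pseudocount of 5, 4 as TPM, 6 under a rule of 25% more, 0 under the 2-fold rule and 1 without Fancb. Of 10471 measured genes, 194 were as far higher with a pseudocount of 5 and 846 as TPM. Under a rule of 25% more 1343 were, and under the 2-fold rule 125 were. The median ratio of the members, 0.36 as reported, was 0.20 with a pseudocount of 5, 0.54 as TPM and 0.47 from the authors' deposited table. With ruxolitinib, the count of 1 was 0 with a pseudocount of 5, 2 as TPM, 4 under a rule of 25% more and 0 under the 2-fold rule. Of 10471 measured genes, 141 were as far higher with a pseudocount of 5 and 616 as TPM. Under a rule of 25% more 989 were, and under the 2-fold rule 124 were. The median of the members, 0.18 as reported, was 0.42 with a filter of 5 FPKM, which kept 7 members, and 0.32 as TPM. For ruxolitinib over control, the count of 0 was 2 in wild type and 1 in knockout under a rule of 25% more, all higher. Of 10471 measured genes, 483 were as far higher and 635 as far lower in wild type. In knockout 753 were higher and 801 lower. A larger pseudocount shrinks ratios and a lower or higher rule counts more or fewer genes by construction; other causes were not tested. Of 40 ratios of single members, 20 moved by 0.1 or more as TPM, 14 with a pseudocount of 5, 3 with a pseudocount of 0.1 and 3 in the authors' deposited table; 2 changed sign as TPM and 0 elsewhere. The ruxolitinib ratio in knockout minus wild type was negative for every member kept under each scaling, pseudocount and filter run, with medians of -0.14 to -0.07. No paired analysis was possible because each group has 1 library and the labels carry no replicate numbers, and no library could be left out. Depth limits Fancf and Fancc most, whose counting errors are the widest.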

Other observations

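Further genes around the pathway were chosen after the data were seen. Aldh2, whose product clears acetaldehyde, was at 397 and 356 FPKM in the KO ruxolitinib and KO control libraries, against 494 and 472 FPKM in the WT ruxolitinib and WT control libraries. Adh5, whose product clears formaldehyde, was at 53.2 and 56.3 FPKM in the KO ruxolitinib and KO control libraries, against 50.2 and 51.0 FPKM in the WT ruxolitinib and WT control libraries. The log2 ratio of KO over WT without drug was -0.40 for Aldh2 and 0.14 for Adh5, and 0 of the 2 passed 1.5-fold. Of 5 crosslink nuclease genes 0 passed. Eme1 had a ratio of 0.57 without drug, beside -0.05 for Mus81, which encodes its catalytic partner. Ercc1 was at 0.30, Dclre1a at 0.10 and Dclre1b at -0.01 without drug. Of 5 translesion and fork genes 1 was 1.5-fold higher without drug, where 3.88% of measured genes were, and 0 passed with drug. It was Helq, a helicase gene, at 3.13 and 3.05 FPKM in the KO ruxolitinib and KO control libraries. In the WT ruxolitinib and WT control libraries Helq was at 2.07 and 1.53 FPKM. Rev3l, the catalytic subunit gene of a bypass polymerase, was at -0.06 without drug.

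The long non-coding RNA Gm16907 (chromosome 13, 63289601 to 63297147, minus strand, mm10) lies within the span of Fancc on the same strand, with no exon overlap. It was at 0.235 and 0.209 FPKM in the KO ruxolitinib and KO control libraries, against 4.18 and 4.22 FPKM in the WT ruxolitinib and WT control libraries. The level was 17.8-fold lower in KO with drug and 20.2-fold lower in KO without drug. Of 10471 measured genes, 18 had log2 ratios as low in both pairs, Gm16907 itself included. Gm16907 was singled out after its values were seen, and Fancc itself had the small ratios given above.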
